A study of Mus musculus with 16 samples.

Results

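The genes described are 10 factors through which astrocytes act on synapses and on the matrix around them: Sparc, Sparcl1, Thbs1, Thbs2, Gpc4, Gpc6, Chrdl1, Ncan, Bcan and Megf10. They were taken by gene symbol from the 53379 genes counted in each library. Green MADM-labeled cells were sorted from the neocortex of mice at postnatal day 4 (P4), with the strain labelled CD1 and the background described in the methods as a mix of C57BL/6 and CD1, and 15 RNA-seq libraries fell into 4 groups. In control-MADM mice (MADM7-GT/TG;Emx1-cre;XGFAP-lacZ) the green cells were Eed+/+ and gave 5 astrocyte (astro wt) and 2 neuron (neuro wt) libraries. In Eed-MADM mice (MADM7-GT/TG,Eed with the same Emx1-cre driver and lacZ transgene), which are heterozygous for Eed, the green cells were Eed-/- and gave 5 astrocyte (astro mosaic) and 3 neuron (neuro mosaic) libraries. Thus all groups shared the MADM cassettes on chromosome 7, the Emx1-cre driver, which acts in dorsal telencephalic progenitors, and the lacZ transgene under the human GFAP promoter. The GFP+/lacZ+ gate defined astrocytes and the GFP+/lacZ- gate neurons, so a green cell of another type that lacks lacZ would also enter the neuron gate. Each library came from 1 animal, and no source used here gives the sex of an animal, while Gpc4 and Chrdl1 lie on the X chromosome.

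Astrocytes secrete proteins that set when and where synapses form. Sparcl1 (hevin) and the thrombospondins promote the assembly of excitatory synapses and Sparc counteracts Sparcl1; the glypicans Gpc4 and Gpc6 and the secreted protein Chrdl1 control which AMPA receptors reach the postsynaptic membrane. Ncan and Bcan are lecticans, chondroitin sulfate proteoglycans of the perineuronal matrix, and Megf10 is a membrane receptor with which astrocytes engulf synapses. Eed is needed by the Polycomb complex PRC2, which places the repressive mark H3K27me3. The comparisons asked whether these factors were higher in astrocytes than in neurons at P4, and whether their levels differed between Eed-/- and Eed+/+ cells.

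Among the matrix genes, Ncan spans chr8:70093085-70120873 and Bcan chr3:87987531-88000230 (GRCm38, both on the minus strand, GENCODE gene models). Their promoters are shown because these lecticans were 2 of the 4 abundant factors and both stood higher in every astrocyte than in every neuron library among the deeper libraries. The sequences come from RefSeq (GRCm38.p6), read 5′ to 3′ on the minus strand, and cover the bases up to 250 before the annotated start that lie in no annotated exon, with motif matches in capitals.

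Ncan, chr8:70120874-70121094: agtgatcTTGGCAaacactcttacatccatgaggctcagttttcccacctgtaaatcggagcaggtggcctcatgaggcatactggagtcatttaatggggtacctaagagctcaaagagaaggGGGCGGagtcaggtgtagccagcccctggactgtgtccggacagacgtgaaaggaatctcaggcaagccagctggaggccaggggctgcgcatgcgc

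Bcan, chr3:88000357-88000606: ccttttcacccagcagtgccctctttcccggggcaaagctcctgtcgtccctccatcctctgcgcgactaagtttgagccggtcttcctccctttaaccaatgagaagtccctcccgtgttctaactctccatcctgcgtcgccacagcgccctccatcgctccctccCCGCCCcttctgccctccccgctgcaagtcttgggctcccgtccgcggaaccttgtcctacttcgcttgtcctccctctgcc

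The capitals mark a partial NFI site (TTGGCA) at position −243 and a GC box (GGGCGG) at position −126 of Ncan, and a GC box in reverse orientation (CCGCCC) at position −82 of Bcan. Positions are counted from the RefSeq start, which for both genes differs from the end of the GENCODE model given above. NFI factors take part in the onset of astrocyte formation. Both strands were searched for TTGGCA, for the SOX core AACAAT, the STAT site TTCNNNGAA, the AP-1 site TGANTCA and the GC box GGGCGG, and these motifs do not overlap each other in the windows shown. Of 27018 promoter windows of 250 bases, 12.5% held TTGGCA, 9.65% the SOX core, 7.18% the STAT site, 6.87% the AP-1 site and 32.9% the GC box. The whole window of Bcan was richer in GC (62.0%, 16 CpG) than that of Ncan (54.4%, 6 CpG), against medians of 52.0% and 6 CpG over all windows. Promoter entries matched 5 of the 10 genes. In the windows of Gpc4 and Sparc 0 and 5 bases preceded the first annotated exon, so the search in effect covered Ncan, Bcan and Thbs2, of which Thbs2 also held TTGGCA, at position −185.

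The libraries differed in depth and purity. Reads assigned to genes ranged from 211736 to 3178529 per library (median 1618825), and 10 of the 15 libraries had at least 1000000 uniquely aligned reads and at least 60% of reads uniquely aligned. These 10 are called the libraries within the limits. Outside them were Eed-/- astrocyte replicates 1, 3 and 4, Eed+/+ astrocyte replicate 3 and Eed+/+ neuron replicate 2. Levels are counts per 1000000 gene reads scaled by TMM factors, which correct for composition (CPM). On this scale a count of 3 reads, taken as the floor, corresponded to between 1.12 and 9.36 CPM. The level of Eed over the whole gene was 38.7 ± 26.4 CPM in Eed+/+ astrocytes (SD, n = 5), 6.29 ± 8.68 in Eed-/- astrocytes (n = 5), 73.0 ± 11.5 in Eed+/+ neurons (n = 2) and 29.3 ± 11.3 in Eed-/- neurons (n = 3), with 3 Eed-/- astrocyte libraries at 0. The library labelled Eed+/+ astrocyte replicate 3 had 2 Eed reads (3.71 CPM, under its floor of 5.57 CPM), a level below those of Eed-/- astrocyte replicates 2 and 5 (17.3 and 14.2 CPM) and of every Eed-/- neuron library, so that Eed went against its label, and the main values between the astrocyte genotypes are also given without it. The whole-gene count includes reads outside the deleted part, so it checks the genotype only in part.

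Astrocyte markers were present in the neuron libraries. The summed level of 10 astrocyte markers was 6348 and 22110 CPM in Eed+/+ neurons and between 6619 and 7561 CPM in Eed-/- neurons, against a range from 2893 to 23452 in Eed+/+ and from 1724 to 27737 in Eed-/- astrocytes, so the groups overlapped. Among the libraries within the limits these sums did not overlap (10794 to 27737 CPM in 6 astrocyte and 6348 to 7561 CPM in 4 neuron libraries). The study, with some libraries set aside, reported Aqp4 and Gfap as strongly enriched in its astrocytes. The water channel Aqp4, a defining astrocyte gene, was at 622 ± 119 CPM over the 5 neuron libraries. Of the 10 neuron markers, Tubb3 (706 ± 420), Map2 (343 ± 157) and Stmn2 (336 ± 107) were highest there, and Syt1 (13.5 ± 23.0) was among the lowest. Between 6 and 10 of these 10 had reads in each neuron library. Summed neuron markers ranged from 968 to 2361 CPM in neurons and from 3.38 to 3607 CPM in astrocytes, and summed oligodendrocyte lineage markers from 1348 to 3837 CPM in neurons and from 135 to 5333 CPM in astrocytes. Microglia markers reached 7951 CPM in replicate 1 and 2217 CPM in replicate 3 of Eed-/- astrocytes and at most 376 CPM elsewhere. Erythroid markers reached 5723 CPM in replicate 1 and 7801 CPM in replicate 4 of Eed-/- astrocytes and at most 62.0 elsewhere, and fibroblast and mural markers 2037 CPM in Eed-/- astrocyte replicate 3 and at most 269 elsewhere. Endothelial markers stayed at or under 48.3 CPM in every library. The cell type comparisons are therefore comparisons of sorted populations.

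**Figure D1:**
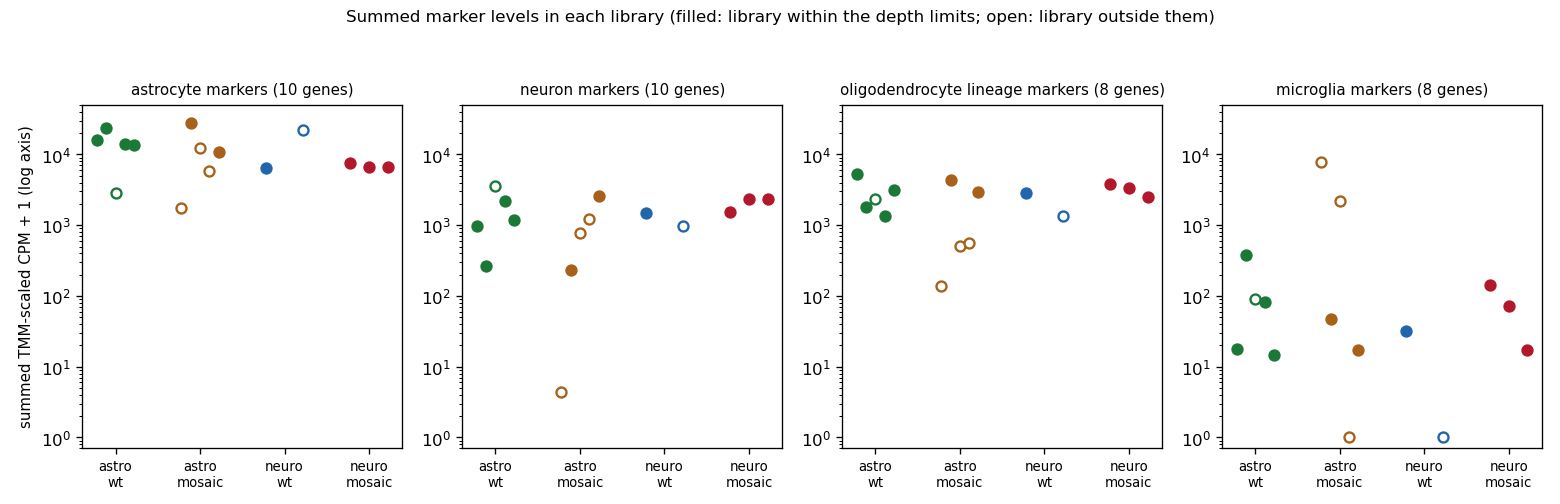
Summed level (TMM-scaled CPM + 1, log axis) of astrocyte, neuron, oligodendrocyte lineage and microglia markers in each of 15 libraries, by group (filled, library within the limits; open, outside). Over all libraries, astrocyte markers in neurons lay inside the range of the astrocyte groups, and within the limits they lay below it. Microglia markers were highest in Eed-/- astrocyte replicates 1 and 3.

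Sparcl1, Ncan, Bcan and Sparc made up nearly all of the expression of the 10 factors. Per kilobase of exon they held between 94.9% and 100% of the summed level in each library, and they took between 0.283% and 2.07% of all gene reads. In Eed+/+ astrocytes the mean level per kilobase was 1347 ± 789 CPM per kb for Sparcl1 (SD, n = 5), 1092 ± 463 for Ncan, 678 ± 312 for Bcan and 160 ± 70.0 for Sparc, followed by Gpc4 (21.4 ± 10.2), Gpc6 (15.6 ± 5.77) and Chrdl1 (11.2 ± 5.23). Megf10 (1.85 ± 2.01), Thbs2 (0.648 ± 0.783) and Thbs1 (0.392 ± 0.402) were lowest. Since the genes share libraries, neighbours were also compared within each library. Ncan stood above Bcan, Bcan above Sparc, Sparc above Gpc4 and Chrdl1 above Megf10 in 5 of 5 Eed+/+ astrocyte libraries. The order of the other neighbours changed or was tied in at least 1 library, with Sparcl1 above Ncan and Gpc4 above Gpc6 in 4 of 5, Megf10 above Thbs2 and Thbs2 above Thbs1 in 3 of 5, and Gpc6 above Chrdl1 in 2 of 5.

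The order was alike in the neurons. Sparcl1 (532 ± 235 CPM per kb in Eed+/+, n = 2; 474 ± 96.5 in Eed-/-, n = 3) stood before Ncan (409 ± 163 and 410.2 ± 121), Bcan (343 ± 194 and 228 ± 23.6) and Sparc (51.5 ± 22.7 and 118 ± 8.95), and the other 6 genes stayed at or under 17.1 CPM per kb on average. In Eed-/- astrocytes Sparc came second, at 404 ± 271 CPM per kb (n = 5), between Sparcl1 (675 ± 665) and Bcan (385 ± 387), but the SDs of the leading 4 overlap there. The share of Sparc in the summed level per kilobase was between 4.19% and 6.37% in Eed+/+ astrocytes and between 8.15% and 73.0% in Eed-/- astrocytes. The 4 genes that led were the same in every library but Eed-/- astrocyte replicate 1, where Chrdl1 stood before Bcan.

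**Figure D2:**
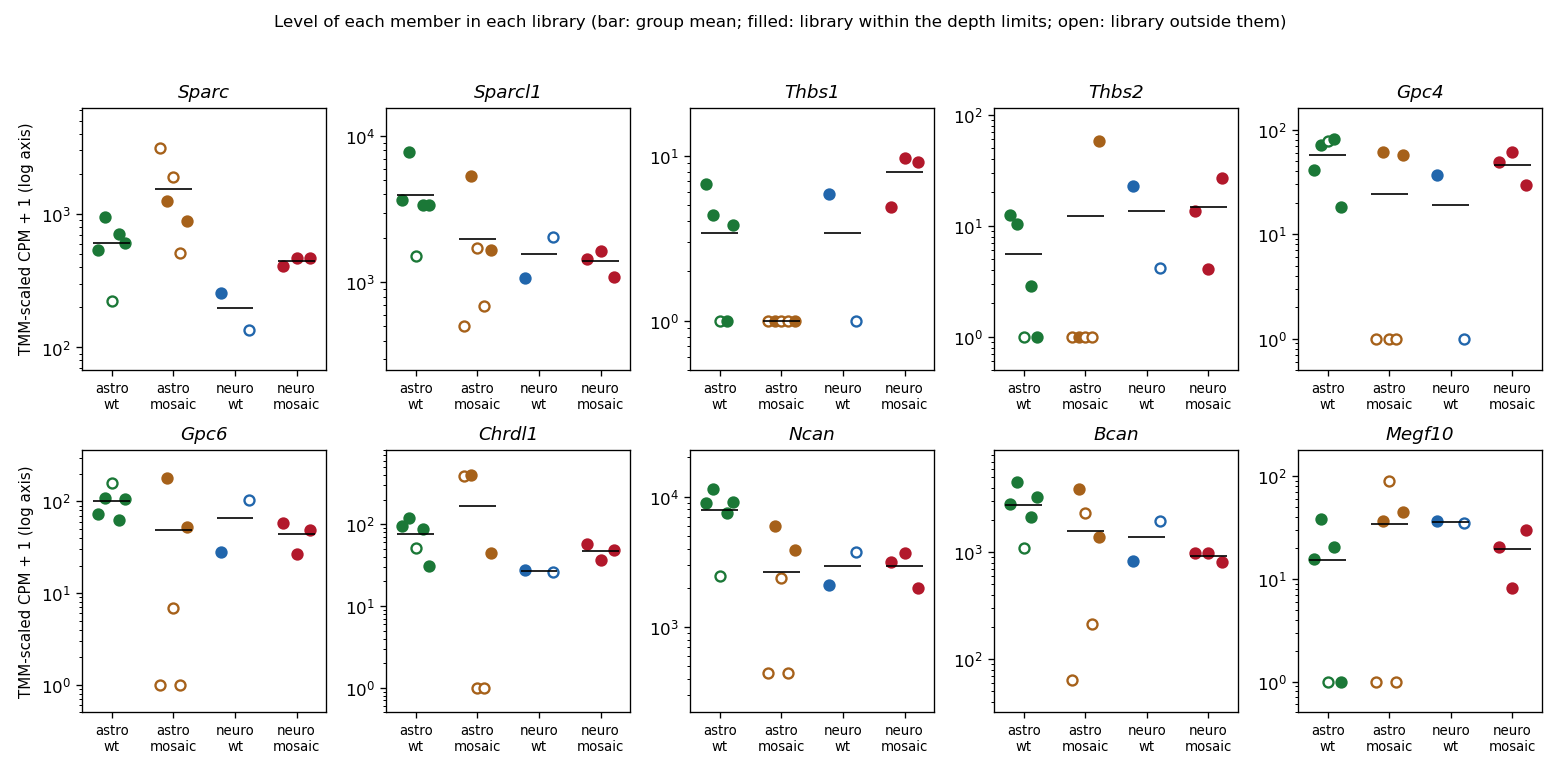
Level of each of the 10 factors (TMM-scaled CPM + 1, log axis) in each of 15 libraries, by group (filled, library within the limits; open, outside; bars, group means). Sparc was higher in each Eed-/- astrocyte library than in any Eed-/- neuron library, and Thbs1 was at 0 in every Eed-/- astrocyte library.

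Sparc (chr11:55394500-55423183), a matricellular protein that antagonizes Sparcl1, was at 535, 947, 221, 712 and 607 CPM in replicates 1 to 5 of the Eed+/+ astrocytes and at 3127, 1248, 1883, 509.8 and 890.0 CPM in Eed-/- astrocytes. In neurons it was at 256 and 134 CPM (Eed+/+) and at 406, 465 and 464 CPM (Eed-/-). Thus 9 of 10 astrocyte libraries stood above every neuron library, the exception being the library labelled Eed+/+ astrocyte replicate 3. No factor separated all astrocyte from all neuron libraries, where 0.0224% of 13367 genes were higher and 0.449% lower without overlap.

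Sparcl1 (chr5:104079111-104113733), which bridges presynaptic neurexin and postsynaptic neuroligin, was at 3665, 7809, 1524, 3379 and 3403 CPM in Eed+/+ astrocytes and at 501, 5336, 1712, 692 and 1669.8 CPM in Eed-/- astrocytes. Neurons had 1074 and 2051 CPM (Eed+/+) and 1442, 1646 and 1086 CPM (Eed-/-). The neuron values lay inside the range of the astrocytes. Reads of Sparcl1 cannot be told apart from those of the overlapping gene Gm26703 where strand was not kept, and the same holds for Thbs1 with Gm29233.

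Ncan was at 8902, 11359.9, 2454, 7429 and 9129 CPM in Eed+/+ astrocytes and at 442, 5982, 2385, 442 and 3906 CPM in Eed-/- astrocytes. In neurons it was at 2115 and 3777 CPM (Eed+/+) and at 3145, 3708 and 2002 CPM (Eed-/-). The 4 Eed+/+ astrocyte libraries within the limits stood above all others, and Eed-/- replicates 1 and 4 were lowest. Bcan was at 2826, 4486, 1089.9, 2121 and 3262 CPM in Eed+/+ astrocytes and at 62.6, 3852, 2306, 210.1 and 1399 CPM in Eed-/- astrocytes, with 834 and 1951 CPM in Eed+/+ and 976, 988 and 816 CPM in Eed-/- neurons. As for Ncan, Eed-/- astrocyte replicates 1 and 4 were lowest.

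The other 6 factors were scarce. Gpc4 (chrX:52053021-52165252) and Gpc6 (chr14:116925315-117976544), which bind through a lipid anchor and are shed from astrocytes, ranged from 17.3 to 79.8 CPM and from 61.8 to 156 CPM in Eed+/+ astrocytes. In Eed-/- astrocytes Gpc4 was at 0 in replicates 1, 3 and 4 and at 59.8 and 56.6 CPM in replicates 2 and 5, and Gpc6 ranged from 0 to 180 CPM. Chrdl1 (chrX:143285674-143394262), an antagonist of bone morphogenetic proteins, ranged from 29.8 to 118 CPM in Eed+/+ and from 0 to 402 CPM in Eed-/- astrocytes. Thbs2 (chr17:14665500-14694235) was at or under 11.5 CPM in Eed+/+ astrocytes and at 0 in all Eed-/- astrocyte libraries but replicate 5 (56.6 CPM), and Megf10 (chromosome 18) ranged from 0 to 37.3 and from 0 to 88.6 CPM. Thbs1 (chr2:118111876-118127133), like Thbs2 a thrombospondin, was between 0 and 5.76 CPM in Eed+/+ astrocytes and at 0 in all Eed-/- astrocytes. Over the 5 neuron libraries Thbs1 ranged from 0 to 8.72 CPM, Thbs2 from 3.08 to 25.8, Gpc4 from 0 to 60.04, Gpc6 from 25.7 to 103, Chrdl1 from 25.0 to 57.1 and Megf10 from 7.18 to 35.4 CPM. Each of these 6 had reads in at least 4 of the 5 neuron libraries. The libraries outside the limits held most of these zeros: 6, 5 and 4 of the 10 factors had no read in Eed-/- astrocyte replicates 4, 1 and 3, and 3 in Eed+/+ astrocyte replicate 3.

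Between astrocytes and neurons over both genotypes, none of the 10 factors passed the threshold (0 of 10 at an adjusted p of 0.05, edgeR quasi-likelihood test, Benjamini-Hochberg over 13367 genes), where 0.015% of all genes tested passed. At an unadjusted p under 0.05 there were 2 factors, Sparc and Thbs1, against 5.51% of all genes. The log2 fold change of Sparc was 1.71 (SE 0.87, unadjusted p = 0.0494, adjusted p = 0.904 by edgeR), with astrocytes higher. In the same comparison all 8 microglia markers were positive (median log2 fold change 4.16, 7 with an unadjusted p under 0.05, none called by edgeR), as were the 4 erythroid markers tested (median 3.77), and their part in the Sparc value was not tested. For Thbs1 it was −3.18 (SE 1.42, adjusted p = 0.776 by edgeR), a fitted value that depends on the prior count because every Eed-/- astrocyte library was at 0. Chrdl1 (1.70), Sparcl1 (0.92), Bcan (0.87), Ncan (0.62), Gpc6 (0.39) and Gpc4 (0.34) had positive and Megf10 (−0.21) and Thbs2 (−0.85) negative log2 fold changes, all with adjusted p = 1.0 by edgeR. The median over the 10 was 0.50 with 7 positive, where the median over all genes tested was −0.34 and 36.0% were positive. The sign of Thbs2, Gpc4, Gpc6 and Megf10 each turned when 1 of the libraries was left out. In bulk samples, fewer cells of a type and less RNA per cell cannot be told apart.

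**Figure D3:**
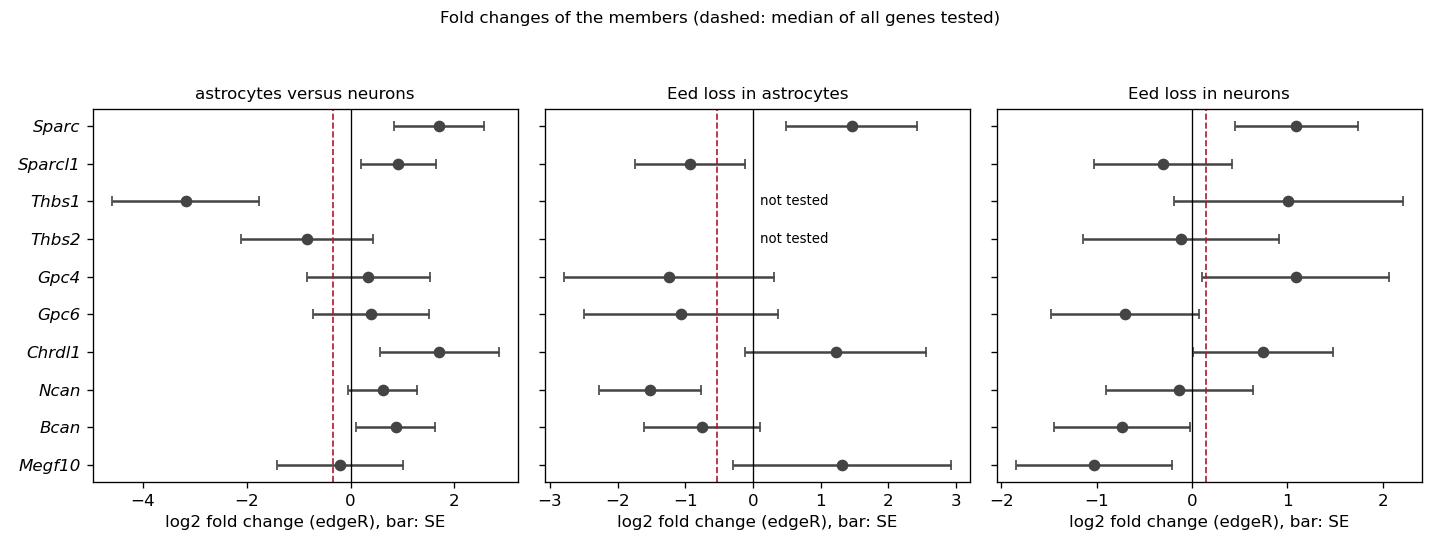
Log2 fold change of each factor by edgeR (points, with the SE derived from the F statistic as bars) between astrocytes and neurons, between Eed-/- and Eed+/+ astrocytes and between Eed-/- and Eed+/+ neurons. The dashed line is the median of all genes tested. No factor passed the threshold in any of the 3 comparisons, and Thbs1 and Thbs2 were not tested in the astrocyte genotype comparison.

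Tested alone on mean log2(CPM + 1), Sparc was higher in astrocytes by 1.41 (exact permutation test, two-sided, p = 0.0186, 10 against 5 libraries), and Thbs1 differed by −1.58 (exact permutation p = 0.0353). Sparcl1 (0.64), Ncan (0.24), Bcan (0.33), Thbs2 (−1.98), Gpc4 (−0.31), Gpc6 (−0.64), Chrdl1 (0.11) and Megf10 (−1.45) did not pass (exact permutation p = 0.289, 0.765, 0.717, 0.0919, 0.982, 0.667, 0.946 and 0.262). These p-values are not adjusted for the 10 factors tested. Without Eed+/+ neuron replicate 2, the lowest value, the difference of Sparc was 1.10 (exact permutation p = 0.0559), and without Eed-/- astrocyte replicates 1 and 3 it was 1.02 (exact permutation p = 0.0435). That of Thbs1, a gene of a few reads per library, was lost without any 1 of Eed+/+ neuron replicate 1 and Eed-/- neuron replicates 1, 2 and 3 (exact permutation p from 0.0619 to 0.0939), and without Eed-/- astrocyte replicates 1 and 3 (exact permutation p = 0.0699).

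Among the libraries within the limits the abundant factors separated the cell types. In the 6 astrocyte and 4 neuron libraries, Sparc was at 823 ± 262 against 398 ± 98.6 CPM (SD), Sparcl1 at 4210.3 ± 2112 against 1312 ± 281, Ncan at 7785 ± 2618 against 2742 ± 824 and Bcan at 2991 ± 1128 against 904 ± 90.9 CPM. For each of these 4 the lowest astrocyte library stood above the highest neuron library, as it did for 1.54% of 13367 genes. The differences of mean log2(CPM + 1) were 1.03 for Sparc, 1.55 for Sparcl1, 1.47 for Ncan and 1.63 for Bcan (exact permutation p = 0.00952 in each, the smallest that 6 against 4 libraries can give). Gpc6 was higher by 1.23 (exact permutation p = 0.0190) with groups that overlap and Gpc4 by 0.23 (exact permutation p = 0.619), whereas over all libraries both differences had the opposite sign. Thbs1 was lower in astrocytes by 1.70 (difference −1.70, exact permutation p = 0.0381), and Thbs2 (−1.37), Megf10 (−0.33) and Chrdl1 (1.15) did not pass (exact permutation p = 0.314, 0.952 and 0.105). With DESeq2 on these 10 libraries, a combination chosen after the data were seen, 4 of the 10 factors passed at an adjusted p of 0.05, against 1.21% of the genes with an adjusted p: Sparc (log2 fold change 1.37, adjusted p = 0.00252), Sparcl1 (1.72, 0.0102), Ncan (1.45, 0.00191) and Bcan (1.73, 0.00252). With edgeR on the same libraries none passed (0 of 10, adjusted p = 0.4999 for each of these 4), and of all genes 0 were called. The summed astrocyte markers moved with these factors, from 10794 to 27737 CPM in the 6 astrocyte and from 6348 to 7561 CPM in the 4 neuron libraries, and their part in the result was not tested.

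Within the genotypes, Sparc separated the cell types in Eed-/- cells, where all 5 astrocyte libraries had more Sparc than all 3 neuron libraries (1531.6 ± 1025 against 445 ± 33.9 CPM, exact permutation p = 0.0357, the smallest that 5 against 3 can give), as did 0.314% of genes. The highest Sparc levels were those of replicates 1 (3127 CPM) and 3 (1883 CPM), which also had the highest summed microglia markers (7951 and 2217 CPM), and replicate 3 had the highest fibroblast and mural markers (2037 CPM). In this comparison all 8 microglia markers (median log2 fold change 4.77), all 7 fibroblast and mural markers tested (3.47) and all 4 erythroid markers tested (10.24) were positive, 3 of the erythroid ones were called by edgeR, and their part in the Sparc difference was not tested. Without replicates 1 and 3 the difference of mean log2(CPM + 1) fell from 1.52 to 0.90 (exact permutation p = 0.1, the smallest that 3 against 3 can give). The log2 fold change of 1.80 over all libraries was not called (adjusted p = 0.931 by edgeR), and 0.0598% of all genes were. Thbs1 had no read in any of the 5 Eed-/- astrocyte libraries and was at 3.91, 8.72 and 8.18 CPM in Eed-/- neurons, a separation in that direction shared by 11.4% of genes. The floor of 3 reads was at 5.08, 8.86 and 9.27 CPM in Eed-/- astrocyte replicates 1, 3 and 4, which is near or above these levels, and at 1.99 and 3.03 CPM in replicates 2 and 5. In Eed+/+ cells Chrdl1 was at 25.0 and 26.3 CPM in both neuron libraries and from 29.8 to 118 CPM in the 5 astrocyte libraries without overlap (exact permutation p = 0.0952, the smallest that 5 against 2 can give), as for 4.14% of genes, and none of the 10 factors was called by edgeR there (0.00748% of all genes were).

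Between Eed-/- and Eed+/+ astrocytes, 8 of the 10 factors had enough reads to be tested and none passed (0 of 8), as for all 8956 genes tested (0.0%; 1.21% at an unadjusted p under 0.05). Ncan had the lowest p among them, with a log2 fold change of −1.52 (SE 0.76, unadjusted p = 0.0447, adjusted p = 1.0 by edgeR) where the median of all genes was −0.54. Sparc lay on the other side, at 1.46 (SE 0.97, adjusted p = 1.0 by edgeR). Megf10 (1.31) and Chrdl1 (1.22) were also positive, and Sparcl1 (−0.93), Bcan (−0.76), Gpc4 (−1.25) and Gpc6 (−1.07) negative, so that 3 of 8 were positive where 28.6% of all genes were. On mean log2(CPM + 1) Ncan was lower in Eed-/- astrocytes by 2.12 (difference −2.12, exact permutation p = 0.0476), with 3 of 5 Eed-/- libraries below every Eed+/+ library. These 3 were replicates 1, 3 and 4, the Eed-/- astrocyte libraries outside the limits, which carried the microglia, erythroid or fibroblast and mural markers given above, and the part of these in the difference was not tested. Without the library labelled Eed+/+ astrocyte replicate 3 the difference was −2.50 (exact permutation p = 0.0159), and by edgeR the log2 fold changes were −1.74 for Ncan and 1.33 for Sparc (adjusted p = 0.999 each). The call was lost when any library other than that one or Eed-/- replicates 2 and 5 was left out (exact permutation p from 0.0794 to 0.0952), and among the libraries within the limits the difference was −0.91 (exact permutation p = 0.133, the smallest that 2 against 4 can give). Sparc (1.22), Sparcl1 (−1.31) and Bcan (−1.83) did not pass (exact permutation p = 0.0794, 0.103 and 0.190). Nor did Gpc4 (−3.31), Gpc6 (−3.38), Chrdl1 (−1.56), Megf10 (0.71), Thbs1 (−1.36) and Thbs2 (−0.53; exact permutation p = 0.0952, 0.0873, 0.444, 0.619, 0.167 and 0.841). For Chrdl1, at 0 in 2 Eed-/- libraries, this sign is opposite to that by edgeR. No factor separated the genotypes in all libraries, against 1.72% of genes that were lower and 0.0112% that were higher without overlap.

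The ratios of Sparc to Sparcl1 and to Ncan within a library, which need no scaling between libraries, separated the genotypes, and that of Sparc to Bcan overlapped. These ratios of reads were chosen after the values had been seen. Sparc reads per Sparcl1 read were 0.146, 0.121, 0.145, 0.211 and 0.178 in Eed+/+ astrocytes and 6.24, 0.234, 1.10, 0.737 and 0.533 in Eed-/- astrocytes. Every Eed-/- library thus exceeded every Eed+/+ library, with a mean log2 difference of 2.54 (exact permutation p = 0.00794, the smallest that 5 against 5 can give). After adjustment the p was 0.0265 over the 10 ratios of this comparison and 0.132 over all 50 ratio tests (permutation tests, Benjamini-Hochberg). The same separation by a ratio to Sparcl1 was found for 1.44% of 695 genes with reads in all 10 astrocyte libraries, and 12.7% of them had a ratio to Sparc that was lower in every Eed-/- library. Sparc reads per Ncan read ranged from 0.0601 to 0.0958 in Eed+/+ and from 0.209 to 7.08 in Eed-/- astrocytes (log2 difference 3.34, the same permutation p and adjusted p), where 7.63% of genes separated likewise by their ratio to Ncan. Sparc reads per Bcan read ranged from 0.186 to 0.336 in Eed+/+ and from 0.324 to 49.9 in Eed-/- astrocytes (log2 difference 3.06, exact permutation p = 0.0159, adjusted 0.0397 over 10 ratios and 0.198 over 50 tests), so that these groups overlapped. All 3 differences were smaller without Eed-/- replicate 1, the library with the most microglia markers, at 1.84 for Sparcl1, 2.55 for Ncan and 1.87 for Bcan (exact permutation p = 0.0159, 0.0159 and 0.0317). Without the library labelled Eed+/+ astrocyte replicate 3 they were 2.51, 3.39 and 3.03 (exact permutation p = 0.0159, 0.0159 and 0.0317). For Bcan the call was lost without Eed-/- replicates 1 and 3 together (1.86, exact permutation p = 0.0714).

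**Figure D4:**
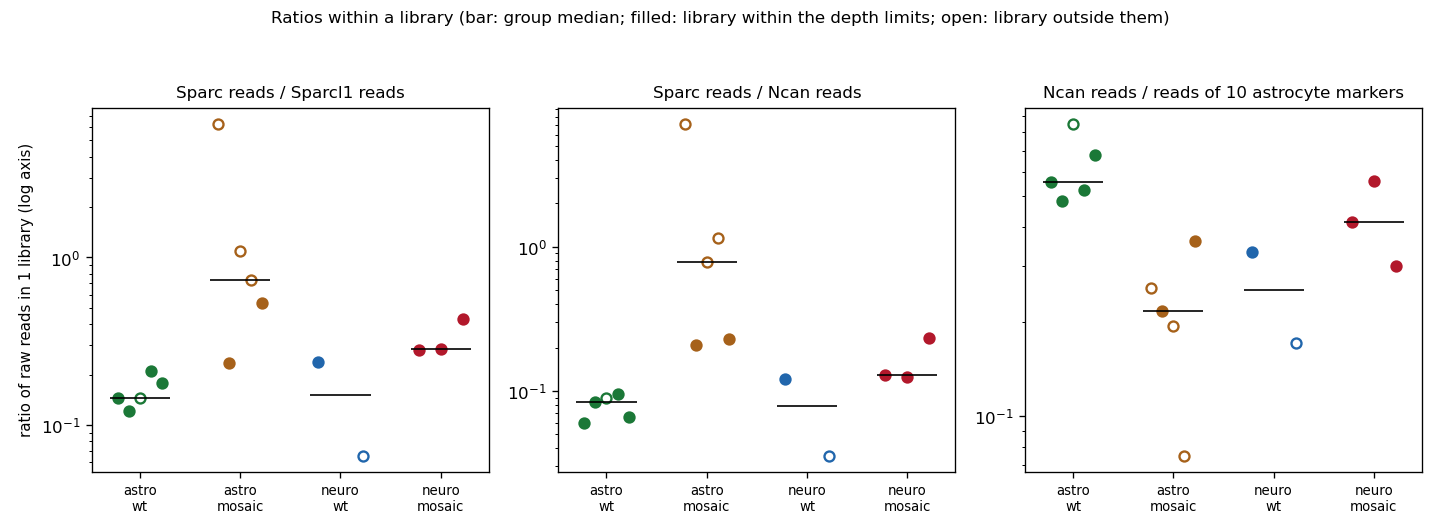
Ratios of reads within each library (log axis) by group, for Sparc to Sparcl1, Sparc to Ncan and Ncan to the sum of 10 astrocyte markers (filled, library within the limits; open, outside; bars, group medians). Sparc to Sparcl1 lay from 0.121 to 0.211 in Eed+/+ and from 0.234 to 6.24 in Eed-/- astrocytes.

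The library with the highest summed microglia markers, Eed-/- astrocyte replicate 1, also had the highest ratio of Sparc to Sparcl1. Without Eed-/- replicates 1 and 3 the log2 difference was 1.52 and the groups did not overlap (exact permutation p = 0.0357, the smallest that 3 against 5 can give), as for 2.88% of the 695 genes. In the remaining 3 Eed-/- libraries the summed microglia markers were at 45.9, 0 and 16.2 CPM, and in Eed+/+ astrocytes from 13.9 to 376 CPM. The highest ratio among these 3 (0.737) was that of replicate 4, which had 7801 CPM of erythroid markers, at most 5.76 CPM in Eed+/+ astrocytes, and reads for 4 of the 10 astrocyte markers. Fibroblast and mural markers were at 195, 228, 2037, 269 and 97.1 CPM in Eed-/- and from 28.4 to 179 CPM in Eed+/+ astrocytes, and the part of microglia, erythroid or fibroblast and mural RNA in the ratio was not tested. Among the libraries within the limits the difference was 1.14, without overlap in 2 against 4 libraries (exact permutation p = 0.133, the smallest possible), as for 8.49% of genes. The library numbers of the files fall into 2 runs, and the difference was 3.14 within the first and 1.83 within the second, without overlap in each (exact permutation p = 0.2, the smallest possible), as for 16.8% and 26.0% of genes.

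Ncan was also lower relative to the astrocyte markers. Ncan reads per read of the 10 astrocyte markers were 0.554, 0.484, 0.849, 0.525 and 0.675 in Eed+/+ astrocytes and 0.256, 0.216, 0.194, 0.0748 and 0.362 in Eed-/- astrocytes, without overlap (log2 difference −1.62, exact permutation p = 0.00794, adjusted 0.0265 over 10 ratios and 0.132 over 50 tests). Of 696 genes with reads in all astrocyte libraries, 0.718% had a ratio to these markers that was lower in every Eed-/- library. Leaving out any single library kept the groups apart (exact permutation p = 0.0159 each time). The difference was −1.503 without the library labelled Eed+/+ astrocyte replicate 3 and −1.75 without Eed-/- replicates 1 and 3. It was −1.23 and −2.03 within the 2 runs, and −0.99 within the limits. The exact permutation p cannot fall under 0.2 for 3 against 2 libraries or under 0.133 for 2 against 4. For these subsets the share of genes that separate likewise was not computed. Of the 10 markers, 4 had reads in Eed-/- replicate 4 and 8 in replicate 1. For Bcan (−1.34), Sparcl1 (−0.82) and Sparc (1.72) the ratio to the markers differed with groups that overlap (exact permutation p = 0.0238, 0.0397 and 0.0317). The Sparc value was lost without any of 6 libraries (exact permutation p = 0.0635), and that of Sparcl1 without any of 7 (exact permutation p from 0.0635 to 0.0794).

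In neurons none of the 10 factors passed the threshold between the genotypes (edgeR, 0 of 10, 0.0% of 11862 genes called, 7.27% at an unadjusted p under 0.05). Sparc was higher in all 3 Eed-/- than in both Eed+/+ libraries (log2 fold change 1.09, SE 0.64, adjusted p = 0.739 by edgeR), as was Chrdl1 (0.74, 57.1, 35.4 and 47.2 against 26.3 and 25.0 CPM), and Megf10 was lower (−1.03, 19.6, 7.18 and 29.0 against 35.4 and 34.3 CPM). Without overlap, 15.6% of genes were higher and 7.72% lower, and the smallest p of 3 against 2 libraries is 0.2 (exact permutation test), so these separations are near the background. Sparc reads per Sparcl1 read were 0.238 and 0.0654 in Eed+/+ and 0.281, 0.283 and 0.427 in Eed-/- neurons, also without overlap (log2 difference 1.37, exact permutation p = 0.2), as for 7.04% of 9681 genes with reads in all 5 neuron libraries. Of the 10 factors 4 had positive log2 fold changes, against 55.4% of all genes. Without Eed+/+ neuron replicate 1, the deeper of 2, Gpc4 alone passed (log2 fold change 8.86, adjusted p = 0.0172 by edgeR) with the remaining Eed+/+ library at 0, while 2601 genes were called. The difference between the genotype effects in astrocytes and in neurons passed the threshold for none of the 10 factors (0 of 10, 0.0524% of 13367 genes called). Thbs1 was the single factor with an unadjusted p under 0.05 there (fitted log2 value −6.03, adjusted p = 1.0 by edgeR, with every Eed-/- astrocyte library at 0), and 3.61% of genes had one.

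No tested gene of the same families and pathways passed the threshold between astrocytes and neurons, where 0.015% of all genes passed and 36.0% had positive log2 fold changes. These lists held the relatives of the factors, their binding partners and their neuronal receptors. Of 9 relatives of SPARC and the thrombospondins 7 were tested, none was called, and 3 had positive (Smoc2 2.47, Fstl1 0.88, Thbs3 0.87) and 4 negative log2 fold changes (among them Spock1 −1.41, Smoc1 −1.37 and Thbs4 −1.25), with a median of −0.67. Of 6 relatives of the glypicans and Chrdl1 5 were tested and none was called, with 4 positive (among them Chrdl2 1.77, Chrd 0.94 and Gpc5 0.77) and 1 negative (Gpc3 −1.15). Of 10 matrix genes around the lecticans, namely other lecticans, link proteins, tenascins, the receptor phosphatase Ptprz1 and the proteoglycan Cspg5, 8 were tested and none was called, 4 in each direction (Hapln1 1.23, Hapln3 0.74 and Tnc 0.35; Tnr −1.38, Vcan −0.45 and Hapln4 −0.09).

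All 11 engulfment genes were tested and none was called, 6 positive and 5 negative. The bridging molecule Mfge8 (1.31, SE 0.73, adjusted p = 0.955 by edgeR), Gas6 (1.11) and its receptor Axl (1.10) were on the astrocyte side and Megf11 (−1.30), Pros1 (−0.99) and Abca1 (−0.51) on the neuron side. Of the 17 neuronal receptors and synaptic partners of these factors, all were tested, none was called and 14 were negative, with a median of −0.75 against −0.34 for all genes. The neuronal pentraxin Nptx1 (−4.65, SE 1.49, adjusted p = 0.373 by edgeR) and the synaptic adhesion protein Lrrtm4 (−4.47, SE 1.46, adjusted p = 0.400 by edgeR) had unadjusted p-values under 0.05, and Nptx2 was at −1.70. The 3 positive ones were the AMPA receptor subunit Gria1 (1.63), the neuroligin Nlgn3 (0.77) and Gpr158 (0.56), a receptor for Gpc4.

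Over the 15 libraries, the genes most like each factor were found by Pearson correlation of log2 CPM (prior count 2) among 13367 genes, as a description, since the libraries share depth and cell mixture. Among the genes most like Sparcl1 was Ncan (r = 0.92). Ncan was most like Fgfbp3 (0.98) and the astrocyte marker Aldh1l1 (0.94), and Bcan most like the amino acid transporter Slc38a3 (0.96) and Pcyt2 (0.96). For these 3 the r stayed at 0.87 or above in the 10 libraries within the limits. For Sparc the r with Selenop was 0.89, and 0.69 within the limits. For the scarce factors the leading genes (Zfp941 and Mypop for Thbs1, Fam89a and Tspan2 for Thbs2, Nkiras1 and Lamtor5 for Gpc4, Sfxn2 and Hk1 for Gpc6, Mrpl10 and Pigu for Chrdl1, Vamp8 and Atp11a for Megf10) had r from 0.89 to 0.99, and from 0.63 (Chrdl1 with Pigu) to 0.91 within the limits, and these points share libraries at 0.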

How the data were processed

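RNA-seq was measured in 16 libraries of few sorted cells (Smart-Seq v2, polyA RNA). The authors aligned reads with STAR to mm10 (GRCm38) and deposited raw counts of reads per gene, neither normalized nor pooled. Alignment settings are stated for the embryonic libraries of the study only, with the annotation release not given in the sources used here. Reads on the first strand made up 46.7% to 52.7% in the labelled libraries, so the unstranded column was used. The lines of totals that name no gene stayed out of library sizes (reads outside genes were 8.55% to 71.6% of uniquely aligned reads). Columns without a sample numbered 0. The labels of 1 library named both cell types, and it entered no comparison.

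Symbols and positions came from GENCODE mouse release 21, and 53274 of 53379 identifiers matched. Counts were tested with edgeR 4.0.16 (R 4.3.3; TMM, filterByExpr, robust quasi-likelihood test, two-sided, Benjamini-Hochberg over all genes tested, threshold 0.05). The SE given with an edgeR value is the absolute log2 fold change divided by the square root of the F statistic. Cell type contrasts and the interaction were fitted over 15 libraries, genotypes within astrocytes (10) or neurons (5). Single factors were compared by exact permutation tests on mean log2(CPM + 1), and ratios used raw reads of 1 library (scipy 1.17.1). DESeq2 1.42.0, limma 3.58.1, other scalings and filters, depth limits and left-out libraries were alternatives. The limits of 1000000 uniquely aligned reads and 60% follow those the study states for its embryonic libraries. The study set some libraries of this series aside without naming them, and all 15 were kept. Floors of 3 reads cover counting error only, since reads without molecular identifiers are not independent molecules.

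Recovery on simulated counts is given as the share of those changed genes that passed the filter (log2 changes of 1.5 and 3). With the spread of these libraries, edgeR recovered between 0% and 2.04% for astrocytes against neurons (13367 genes) and 0% for the astrocyte genotypes (8956 genes). For the neuron genotypes (11862 genes) it recovered 2% and 6.82% at 1.5 and 30% and 39.0% at 3, with 8 false calls. With a dispersion of 0.1 the ranges were 84% to 100%, 68.8% to 100% and 30% to 100%, with 8, 11 and 7 false calls.

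The factors and the lists were chosen with earlier results of these data known. Named were all 10 factors, up to 3 genes per direction and related list by p, the 2 genes most like each factor, and Eed. Some of the genes most like a factor are not reported here.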

Additional observations from a re-analysis of the deposited data

Results flagged for a closer look

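Within Eed-/- astrocytes, 3 values stood far from the other 4 libraries of their group by Dixon's test, of 19 groups of 4 to 10 samples tested. Its chance rate of about 1 in 20 holds for normally distributed values, whereas untransformed CPM with zeros were used here. The 3 values came from replicates 2 and 5, the 2 Eed-/- astrocyte libraries within the limits. Sparcl1 was at 5336 CPM in replicate 2, with the next library at 1712 CPM. Gpc6 was at 180.1 CPM in the same library, with the next at 51.6 CPM. Thbs2 was at 56.6 CPM in replicate 5 and at 0 in the other libraries, a pattern that the test flags at any level.

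The library outside the comparisons, whose labels named both cell types of Eed-/- cells, held 50 reads of Sparc, 829 of Sparcl1, 3319 of Ncan and 81 of Bcan among 221456 gene reads, all above the limit of 3 reads that a count of 0 allows.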

How the results depend on the processing

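No factor was called by edgeR in any comparison, and this held under all alternatives except the following. With DESeq2 on the libraries within the limits, 4 factors were called between astrocytes and neurons. For Eed loss in neurons, leaving out each library in turn gave between 0 and 1 factors called: without Eed+/+ neuron replicate 1, Gpc4 had a log2 fold change of 8.86 (adjusted p = 0.0172 by edgeR) while 2601 genes were called, where the spread of the lone Eed+/+ library comes from the Eed-/- ones. Over the alternatives, the number of genes called among all tested ranged from 0 to 137 for astrocytes against neurons (2 in the fit reported), 0 to 8 (1) in Eed+/+ and 0 to 26 (8) in Eed-/- cells, 0 to 46 (0) for Eed loss in astrocytes, 0 to 2601 (0) in neurons and 0 to 21 (7) for the interaction.

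For astrocytes against neurons, these log2 fold changes turned sign: Gpc4 with the replicate block (−0.64), Gpc6 with limma-voom (−0.070) and with the replicate block (−0.83), and Megf10 within the limits (0.034), within the first run of library numbers (0.41), with the run as a covariate (0.33) and with DESeq2 within the limits (0.062). Leaving out 1 library each gave ranges of −4.33 to 0.16 for Thbs2, −0.15 to 4.11 for Gpc4, −0.42 to 1.01 for Gpc6 and −0.58 to 0.024 for Megf10. For Eed loss in astrocytes, Gpc4 turned within the limits (0.17; DESeq2 0.22), Gpc6 likewise (0.44; DESeq2 0.47), and Chrdl1 with limma-voom (−0.38) and the replicate block (−0.65). The difference of mean log2(CPM + 1) turned between cell types for Gpc4 and Gpc6 within the limits (0.23 and 1.23) and without Eed-/- astrocyte replicates 1 and 3 (0.69 and 0.23). In Eed-/- cells it turned within the limits for Gpc4, Gpc6, Chrdl1, Ncan, Bcan and Megf10 (0.42, 1.21, 1.52, 0.76, 1.33 and 1.23), for Bcan without those replicates (0.18) and for Chrdl1 and Megf10 with a pseudocount of 10 (0.14 and 0.14). Under Eed loss in astrocytes it turned for Thbs2 with a pseudocount of 10 (0.087), within the limits (0.79) and without those replicates (0.24), and for Gpc4, Gpc6 and Chrdl1 within the limits (0.37, 0.20 and 0.85). Within the limits 1 Eed+/+ neuron library was left, and it turned for Thbs1 in Eed+/+ cells (−0.84) and for Sparcl1, Thbs2, Gpc6 and Bcan under Eed loss in neurons (0.35, −1.01, 0.60 and 0.15). None of these was called in either direction by edgeR, and the cause was not tested.

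RLE size factors in place of TMM moved the median of all genes from −0.54 to −0.37 for Eed loss in astrocytes, from −0.72 to −0.49 for Eed-/- and from 0.08 to −0.11 for Eed+/+ astrocytes against neurons, and from −0.79 to −0.31 for the interaction, and turned no factor. Whether astrocyte and neuron libraries of the same replicate number came from 1 animal could not be decided. Correlations between cell types ran from −0.05 to 0.13 for same-numbered libraries (1 of 5 over 0.1). For other numbers they ran from −0.18 to 0.11. The 2 Eed+/+ neuron libraries gave mirrored values (−0.0096 and 0.0096 with Eed+/+ astrocyte replicate 1), which cannot show pairing. The permutation tests between cell types treated all libraries as independent. With the replicate block 0 factors were called. The spread between libraries (biological coefficient of variation 1.38 in astrocytes and 0.582 in neurons) limits what could be called.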

Other observations

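In the library whose labels named both cell types, Ncan was at 14987 CPM, Sparcl1 at 3743 CPM, Bcan at 366 CPM and Sparc at 226 CPM of gene reads without TMM scaling, and the other 6 factors had no read, which at 221456 gene reads allows up to 3 reads each. This library lay outside the limits, with 586004 uniquely aligned reads (17.7% of its reads). Of these, 60.8% fell outside genes, and 2397 genes were detected.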
